A study of Homo sapiens with 18 samples.

Results

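The interferon stimulated genes are a set of 50 genes of the antiviral and double-stranded RNA (dsRNA) sensing response, chosen by name from the 58302 genes of an RNA sequencing table, and all 50 were in the table. The table covers messenger RNA of 18 libraries, in 6 groups of 3 replicates, from cells of human papillary thyroid carcinoma origin. TPC1 cells (wild type for Dicer1) and D11 cells were studied in 3 conditions: NT, without transfection; NC, with a negative control siRNA; and siDicer, with an siRNA directed at Dicer1. Each siRNA was given at 5 nM with a lipid reagent, and RNA was taken on day 4. D11 is a single Dicer1 (+/-) clone made from TPC1 with CRISPR-Cas9, so a difference between D11 and TPC1 cannot be told apart from a difference of that clone. The NT cells were not transfected, so NC against NT was taken as the effect of transfection with the control siRNA. Likewise, siDicer against NC was taken as that of the Dicer1 siRNA at equal transfection. Each siRNA was a single product, so effects of its own sequence cannot be told apart from those of transfection or of Dicer1 loss. The labels do not say that replicates were separate cultures. The methods speak of independent repeats of all experiments without naming the sequenced libraries, so p-values may measure only the spread between these libraries.

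Interferon stimulated genes are switched on when cells detect viral or misplaced nucleic acid. Sensors such as RIG-I and MDA5 for RNA and cGAS for DNA signal through adapters to the factors IRF3 and IRF7, which turn on interferon genes. Secreted interferon binds its receptor, the JAK kinases phosphorylate STAT proteins, and a complex that holds STAT2 and IRF9 binds the interferon stimulated response element (ISRE) in the promoters of the target genes. Interferon gamma acts on another element, the gamma activated site (GAS), and through IRF1. Dicer1 itself cleaves dsRNA, and transfected siRNA is dsRNA, so both contrasts bear on this gene set.

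DICER1, the target of the siRNA, was examined first, because for 12 of the 18 samples the title names another group than the description, which was used here. TPC1 NT replicates 1, 2 and 3 held DICER1 at 1582, 1510 and 1397, the NC replicates at 2492, 1901 and 2366, and the siDicer replicates at 255, 395 and 246. D11 NT replicates held it at 655, 1157 and 923, NC replicates at 1536, 1433 and 1407, and siDicer replicates at 297, 451 and 277. Values are reads scaled to 20 M aligned reads (M, the SI prefix mega), and libraries held 11.3 to 23.2 M reads, so 3 reads equal 2.58 to 5.32 on this scale. All siDicer libraries were below all others of their line, and the siDicer mean was 13.3% of the NC mean in TPC1 and 23.4% in D11, and 20% and 37.5% of the NT mean. NC lay above NT in both lines (log2 0.58 and 0.72, limma adjusted p = 0.25 and 0.135), and with replicate number as a block DICER1 was called higher in D11 NC (adjusted p = 0.0247). Replicate 2 kept the most DICER1 in both lines. Of the thyroid markers, PAX8 was abundant while TSHR, NKX2-1 and SLC5A5 were at or under 3 reads in every library; of the immune markers, PTPRC and CD3E were at 0 to 4, and CD68 at 763 to 1960. In bulk RNA, fewer cells expressing a gene and less RNA per cell cannot be told apart.

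Both lines expressed most of the members without added interferon. The mean over the 18 libraries was at least 1000 for 9 members, between 100 and 1000 for 25 and under 100 for 16. Per kilobase of exon, LGALS3BP, a secreted galectin-binding glycoprotein, was the most abundant with a mean of 2138. It was followed by the membrane restriction factor IFITM3 at 1034, the dsRNA editing enzyme ADAR at 816, the DNA sensor IFI16 at 645 and IFITM2 at 519.6. At the other end, DHX58, BST2, MX2 and XAF1 reached no more than 5, 9, 3 and 2 in any library. These 4 had too low values to be tested, which left 46 of 50 members in every comparison. Several classic, strongly inducible members were low, with MX1 at 4 to 25, OAS2 at 2 to 20 and RSAD2 (viperin) at 2 to 27.

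Transcripts of the interferons themselves were close to absent. IFNB1 was at 0 in 17 libraries and at 2 in D11 NT replicate 3. IFNL1, IFNL2, IFNL3, IFNK, IFNW1 and IFNG were at 0 in all 18 libraries, and IFNA1 reached at most 3. A value of 0 allows up to 3 reads per library, for counting error only. IFNE, an interferon of epithelia that is constitutively made, was at 2 to 28, and in no contrast did it pass the test.

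The promoters of the members carried the letters of the response elements more often than promoters at large. RefSeq promoter windows (GRCh38.p14, 250 bases before to 50 bases after the start) were at hand for 41 of the 50 members, and 23 of the 41 (56.1%) held, on either strand, the core letters of an ISRE, which are GAAA, any 2 bases and GAAA again. Among all 35116 windows of that length the share was 3.57%. TTCNNNGAA, the letters of a GAS, which read the same on both strands, were in 9 of the 41 (22.0%) against 7.66% of all windows. The members were chosen as interferon stimulated genes, so this describes the set. Below are stretches of 60 bases from before the start of 6 members that were called after Dicer1 siRNA. They show what the lower and the higher ones carry. The stretches end 1 base before the start in IFI44 and OAS3. In IFIT1, ISG15, TAP1 and IRF1 they end 69, 73, 94 and 91 bases before it. Capitals mark the searched letters, or their reverse complement.
IFI44, chr1:78649729-78649788, + strand: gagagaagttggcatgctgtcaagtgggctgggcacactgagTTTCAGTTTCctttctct
IFIT1, chr10:89392495-89392554, + strand: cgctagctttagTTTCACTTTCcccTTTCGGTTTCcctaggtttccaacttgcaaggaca
OAS3, chr12:112938414-112938473, + strand: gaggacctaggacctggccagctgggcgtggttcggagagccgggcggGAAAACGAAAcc
ISG15, chr1:1013365-1013424, + strand: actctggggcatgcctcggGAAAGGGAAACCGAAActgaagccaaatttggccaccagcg
TAP1, chr6:32853798-32853857, − strand: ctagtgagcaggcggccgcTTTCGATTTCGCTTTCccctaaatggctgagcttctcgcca
IRF1, chr5:132490864-132490923, − strand: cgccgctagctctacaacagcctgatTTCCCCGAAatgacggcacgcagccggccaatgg
IFI44, IFIT1, OAS3 and ISG15, which were lower after Dicer1 siRNA in D11, all held the ISRE letters, in ISG15 as 2 overlapping matches. TAP1, which was higher, held them as well, also as 2 overlapping matches. IRF1, the other higher member with a window, held no ISRE letters but the GAS letters. Of the other called members, DTX3L held 1 ISRE match, while no window was at hand for OASL, IRF7 and TRIM22. The letters describe these windows and do not show that a factor bound there.

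**Figure D1:**
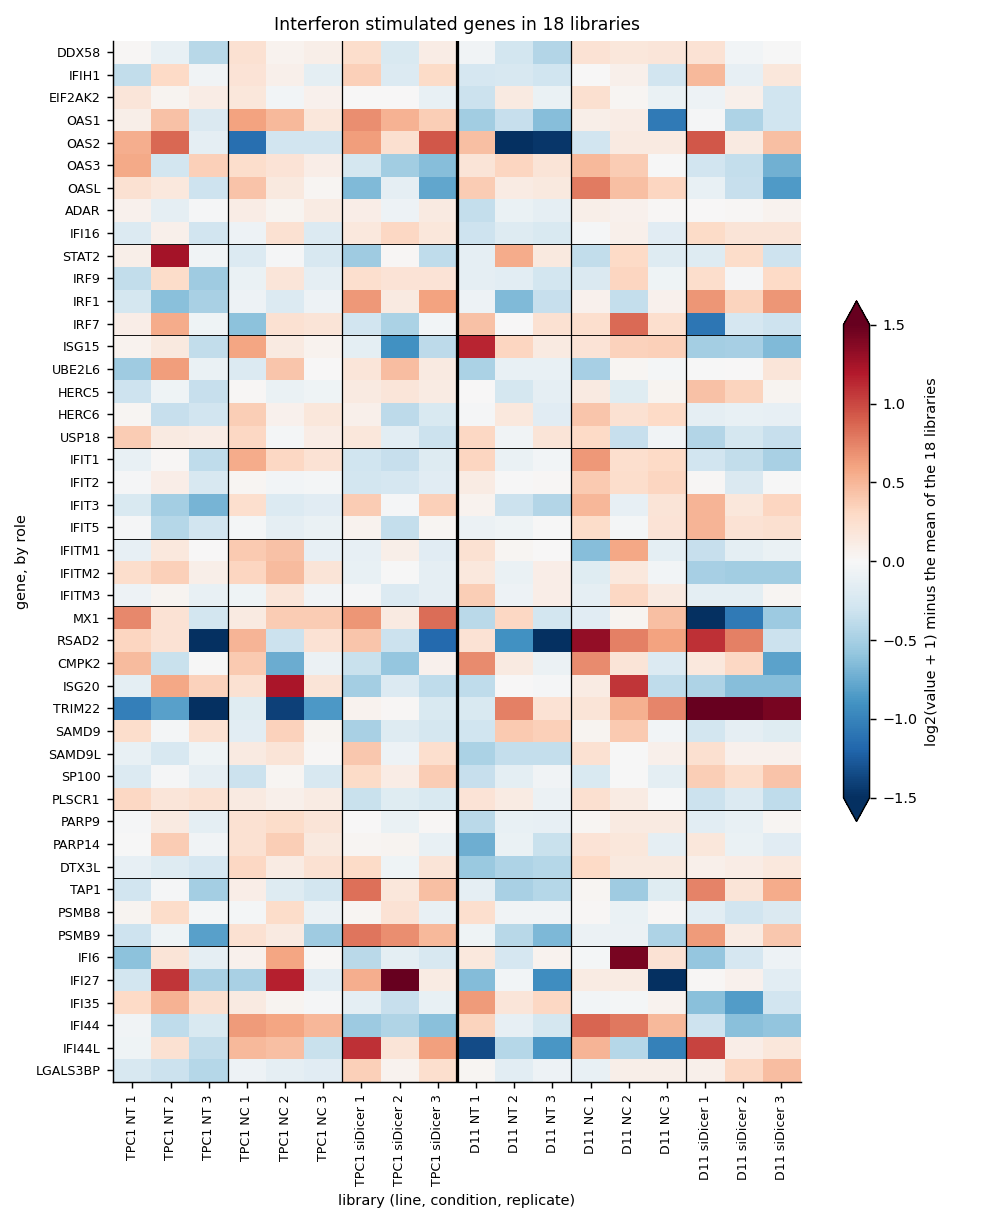
Each row is 1 of the 46 tested members, grouped by role with thin lines between groups, and each column is 1 of the 18 libraries; colour is log2(value + 1) minus the member's mean over the 18 libraries, red higher and blue lower, with the scale ending at 1.5 each way. IFI44 is red in the 6 NC libraries and blue in the 6 siDicer libraries, and TRIM22 is most strongly red in D11 siDicer.

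With transfection alone, IFI44 was called higher in TPC1 and DTX3L in D11, each by less than 2-fold. IFI44, an interferon-induced cytoplasmic protein, had values of 349, 277 and 309 in TPC1 NT and 563, 545 and 511 in TPC1 NC. It was 455, 332 and 302 in D11 NT and 665, 625 and 505 in D11 NC. NC and NT libraries of a line did not overlap. The rise in TPC1 was 1.74-fold (log2 change 0.80 ± 0.12 (SE), limma adjusted p = 0.0239, n = 3 per group), and in D11 the change of 1.66-fold (log2 0.73 ± 0.17) missed the threshold (adjusted p = 0.0695). When replicate number was entered as a block, IFI44 was called in D11 too (adjusted p = 0.00471). The TPC1 call was lost with only the 2 groups fitted (adjusted p = 0.071) and in 7 of the 9 fits that left out 1 library, which were those without NT replicate 1 or 3, any NC replicate, or siDicer replicate 1 or 3 (log2 0.76 to 0.88, adjusted p 0.0509 to 0.147).

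DTX3L, a ubiquitin ligase that works with PARP9, was the member called in D11. Its values were 815, 872 and 893 in D11 NT and 1482, 1327 and 1331 in D11 NC, a rise of 1.60-fold (log2 0.68 ± 0.10, limma adjusted p = 0.00843), and the call was lost without NT replicate 3 (log2 0.71, adjusted p = 0.051). In TPC1 it was 1099, 1049 and 1010 in NT and 1492, 1313 and 1402 in NC, which again did not overlap (log2 0.41 ± 0.11, adjusted p = 0.184). DTX3L and PARP9 share exon sequence on opposite strands, and whether counting used strand is not given in the sources used here, so reads of the pair cannot be fully assigned.

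Across the 46 tested members 1 was called higher in each line and none lower, against 0.103% of all genes higher and 0.222% lower in TPC1, and 0.505% higher and 0.434% lower in D11. A member counted as called when it changed by 1.5-fold or more at a limma adjusted p below 0.05. At an unadjusted p under 0.05 there were 8 members in TPC1 (17.4%, against 11.3% of all genes) and 14 in D11 (30.4%, against 15.9%), and voom on recovered reads also called none lower. The value was higher in NC for 34 of 46 members in TPC1 (73.9%, against 50.3% of all genes) and for 36 of 46 in D11 (78.3%, against 53.0%). The median log2 change of the members was 0.15 in TPC1 and 0.21 in D11, beside 0.0019 and 0.019 over all genes.

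By role, the values leaned up most evenly in the IFIT proteins, which bind foreign RNA ends, and in the group of PARP9, PARP14 and DTX3L. All 4 IFIT genes and all 3 of the latter group had higher values in NC in both lines. Of the 9 tested sensors, 6 had higher values in TPC1 and 9 in D11. IFIT1 was 299, 327 and 248 in TPC1 NT and 478, 403 and 377 in TPC1 NC (log2 0.53 ± 0.14, limma adjusted p = 0.189). In D11 IFIT1 was 404, 301 and 314 in NT and 507, 386 and 399 in NC, where the groups overlapped. None of these groups held a further called member. RSAD2, which blocks viral replication, was 12, 5 and 3 in D11 NT and 27, 18 and 16 in D11 NC, which did not overlap, a 3.07-fold rise in very low values (log2 1.62 ± 0.50, limma adjusted p = 0.157). RSAD2 was called there only with replicate number as a block (adjusted p = 0.0241), which gave 3 higher members in place of 1 and none lower, beside 1.79% and 0.945% of all genes. RSAD2 overlaps CMPK2 on the other strand.

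Dicer1 siRNA, set against the negative control siRNA, went with a decrease of some members and a rise of others. In D11, 6 of the 46 tested members were lower (IFI44, IFIT1, OAS3, OASL, ISG15 and IRF7) and 3 higher (TRIM22, TAP1 and IRF1), beside 4.84% of all genes lower and 3.52% higher. In TPC1, 2 members were lower (IFI44 and IFIT1) and none higher, beside 2.96% lower and 2.40% higher of all genes; the limma unadjusted p was under 0.05 for 17 members (37.0%, against 25.6% of all genes), and voom called 1 higher. As shares, 13.0% of the tested members were lower and 6.52% higher in D11, and 4.35% were lower in TPC1. Over all genes, TMM scaling turned the share of calls that were higher from 44.8% to 58.2% in TPC1 and from 42.1% to 53.5% in D11. Of the markers of other cell types, the 4 fibroblast genes summed to 106 to 133 in D11 NC and 149 to 239 in D11 siDicer, with PDGFRB called higher, COL1A2 at 0 to 2 and DCN at 0, and their part in the results was not tested.

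IFI44 was the member with the largest called decrease in both lines. It was 247, 265 and 233 in TPC1 siDicer against the NC values of 511 to 563 given above, and 291, 233 and 240 in D11 siDicer against 505 to 665. The decrease was 2.17-fold in TPC1 (log2 -1.12 ± 0.12, limma adjusted p = 0.00112) and 2.34-fold in D11 (log2 -1.23 ± 0.17, adjusted p = 0.0012). The siDicer values lay below every NT value in TPC1 and in D11. The gene spans chr1:78649796-78664078 on the + strand (GRCh38) and overlaps no other exon.

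IFIT1, which binds viral RNA that lacks a host cap, was 262, 254 and 283 in TPC1 siDicer and 265, 250 and 231 in D11 siDicer. Both sets lay below all NC libraries of their line. The decrease against NC was 1.57-fold in TPC1 (log2 -0.65 ± 0.14, limma adjusted p = 0.0229) and 1.72-fold in D11 (log2 -0.78 ± 0.15, adjusted p = 0.00652). In TPC1 the siDicer values sat within the NT range of 248 to 327, and in D11 they lay below every NT value. The TPC1 call was lost without any NC replicate or siDicer replicate 1 or 3 (log2 -0.72 to -0.55, adjusted p 0.0548 to 0.0909).

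OAS3 and OASL belong to the family of 2′-5′ oligoadenylate synthetases, of which OAS3 makes the 2′-5′ oligoadenylate second messenger and OASL does not. OAS3 was 1176, 1133 and 1052 in TPC1 NC and 817, 681 and 631 in TPC1 siDicer (log2 -0.67 ± 0.19, limma adjusted p = 0.061). It was 1379, 1277 and 980 in D11 NC and 805, 766 and 594 in D11 siDicer, a 1.68-fold decrease (log2 -0.74 ± 0.15, adjusted p = 0.0072). OASL was 190, 156 and 144 in TPC1 NC and 89, 128 and 82 in TPC1 siDicer (log2 -0.72 ± 0.22, adjusted p = 0.0649). In D11 it was 243, 193 and 176 in NC and 130, 111 and 78 in siDicer, a 1.93-fold decrease (log2 -0.95 ± 0.20, adjusted p = 0.01). For both genes the groups did not overlap in either line, and without a block the call was made in D11 only. With replicate number as a block, OAS3 and OASL were called lower in TPC1 too (limma adjusted p = 0.0137 and 0.0148). The difference between the lines was tested and is given further on. OAS1 and OAS2, by contrast, had log2 changes of 0.12 and 1.17 in TPC1 and of 0.03 and 0.52 in D11, none of them called.

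ISG15, a ubiquitin-like protein that is conjugated to other proteins, was 259, 189 and 178 in TPC1 NC and 155, 91 and 131 in TPC1 siDicer (log2 -0.74 ± 0.23, limma adjusted p = 0.077). With replicate number as a block it was called lower in TPC1 (limma adjusted p = 0.0212). In D11 it was 198, 218 and 220 in NC and 120, 121 and 108 in siDicer, a 1.82-fold decrease (log2 -0.86 ± 0.22, adjusted p = 0.0244). IRF7, the factor that amplifies interferon production, was 70, 106 and 70 in D11 NC and 27, 49 and 47 in D11 siDicer, a 2.00-fold decrease (log2 -1.0 ± 0.27, adjusted p = 0.0279). IRF7 in TPC1 was 38, 69 and 67 in NC and 48, 42 and 57 in siDicer, and these overlapped. The call of ISG15 in D11 was lost without NC replicate 2 or 3 or without siDicer replicate 1, 2 or 3, with log2 changes of -0.89 to -0.81 (adjusted p 0.051 to 0.0985). That of IRF7 was lost without NC replicate 2 or 3 or siDicer replicate 1 or 3, with log2 changes of -1.12 to -0.73 (adjusted p 0.0549 to 0.0969), and with no filter on low values (adjusted p = 0.0543).

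**Figure D2:**
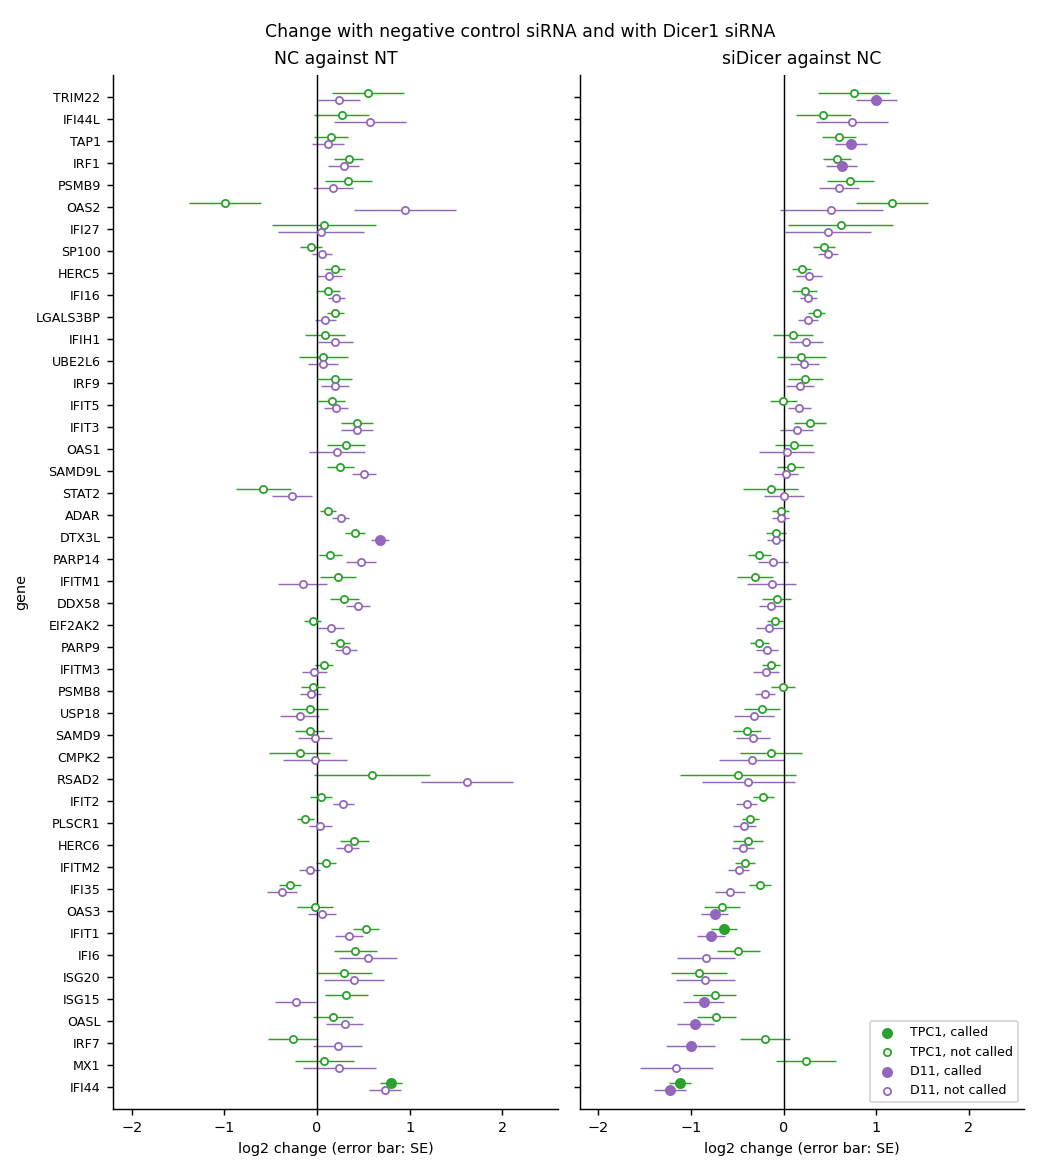
Points are the log2 change of each of the 46 tested members with its SE as error bar, NC against NT in the left panel and siDicer against NC in the right panel, TPC1 in green and D11 in purple, filled where called; genes are ordered by the D11 change in the right panel. IFI44 lies to the right of 0 in the left panel (0.80 and 0.73) and furthest left in the right panel (-1.12 and -1.23).

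Among the members with higher values, IRF1, TAP1 and the neighbouring PSMB9 are well known as targets of interferon gamma. IRF1, a transcription factor, was 463, 423 and 462 in TPC1 NC and 767, 533 and 739 in TPC1 siDicer (log2 0.58 ± 0.15, limma adjusted p = 0.0466, under the fold minimum). In D11 it was 508, 381 and 509 in NC and 771, 614 and 769 in siDicer, a 1.54-fold rise (log2 0.63 ± 0.17, adjusted p = 0.031). The groups did not overlap. Replicate 2, which kept the most DICER1 after siDicer, had the lowest IRF1 of its group in 6 of 6 groups, non-transfected cells included.

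TAP1, one chain of the transporter that carries peptides to HLA class I, was 779, 636 and 602 in TPC1 NC and 1285, 815 and 991 in TPC1 siDicer (log2 0.60 ± 0.19, limma adjusted p = 0.074). In D11 it was 741, 500 and 638 in NC and 1218, 829 and 1065 in siDicer, a 1.66-fold rise (log2 0.73 ± 0.17, adjusted p = 0.018). The siDicer libraries were above the NC libraries in both lines. With replicate number as a block TAP1 was called higher in TPC1 too (limma adjusted p = 0.0224). PSMB9, a subunit of the immunoproteasome, was 96, 90 and 56 in TPC1 NC and 144, 133 and 115 in siDicer (log2 0.72 ± 0.25, adjusted p = 0.108). It was 77, 77 and 59 in D11 NC and 128, 89 and 109 in siDicer (log2 0.60 ± 0.22, adjusted p = 0.0877). With replicate number as a block PSMB9 was called in both lines (limma adjusted p = 0.0142 in TPC1 and 0.031 in D11). The third antigen processing member, PSMB8, had log2 changes of -0.01 and -0.20. TAP1 and PSMB9 both overlap PSMB8-AS1 or PSMB8 exons, and IRF1 overlaps IRF1-AS1.

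TRIM22, a ubiquitin ligase with antiviral activity, had the largest called rise. It was 150, 191 and 219 in D11 NC and 371, 387 and 353 in D11 siDicer, a 2.00-fold rise (log2 1.00 ± 0.22, limma adjusted p = 0.013). In TPC1 it was 116, 49 and 72 in NC and 136, 133 and 112 in siDicer, where the lowest siDicer value lay below the highest NC value (log2 0.76 ± 0.39, adjusted p = 0.249). TRIM22 stayed called in D11 in each fit that left out 1 library but not with all 18 libraries fitted together (log2 1.00 ± 0.34, adjusted p = 0.0552). The call of TAP1 was lost without NC replicate 2 or 3 or siDicer replicate 1 or 3 (log2 0.57 to 0.75, adjusted p 0.0517 to 0.0772) and that of IRF1 without any of these or NT replicate 3 (log2 0.49 to 0.70, adjusted p 0.0502 to 0.124) or with no filter on low values (adjusted p = 0.0513). The count of higher members in D11 was then 1 in place of 3 in 4 of the 9 fits.

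**Figure D3:**
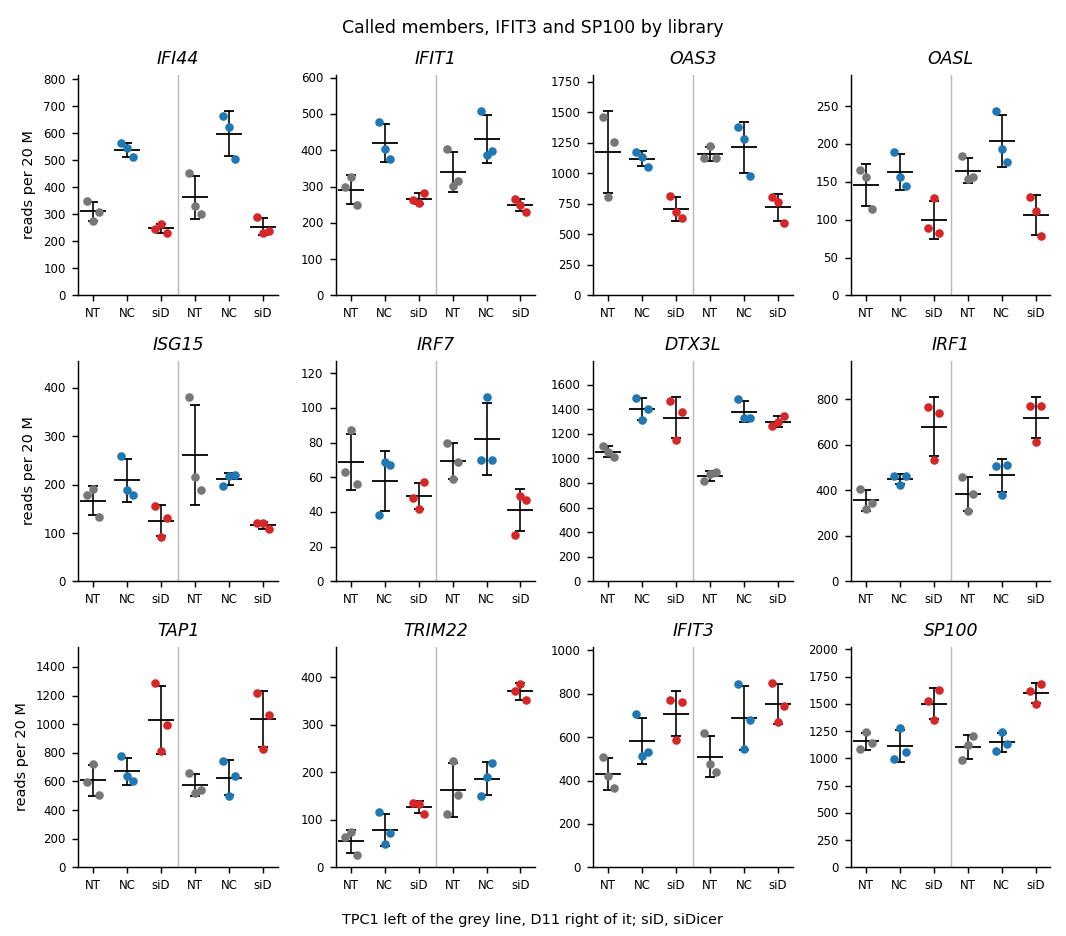
Points are single libraries (3 per group, placed by replicate number from left to right), dashes the mean and bars the SD; the vertical axis is reads per 20 M from 0, TPC1 left and D11 right of the grey line. The 10 called members are shown with IFIT3 and SP100, and IFI44 is highest in NC of both lines while IRF1, TAP1 and TRIM22 are highest in siDicer.

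Among the remaining abundant members changes were small. SP100, a nuclear body protein, passed the adjusted p with folds under 1.5 in both lines (log2 0.44 and 0.48, limma adjusted p = 0.0478 and 0.0142), and so did IFITM2 (-0.42 and -0.49, adjusted p = 0.044 and 0.0182) and the scramblase PLSCR1 (-0.36 and -0.42, adjusted p = 0.0443 and 0.037). LGALS3BP was at 6394 to 6824 in TPC1 NC and 7519 to 9286 in TPC1 siDicer (log2 0.36, adjusted p = 0.0446). IFI35 was 391, 393 and 416 in D11 NC and 259, 224 and 328 in D11 siDicer (log2 -0.58 ± 0.16, adjusted p = 0.0323), just under the fold minimum. ADAR, IFITM3, IFI16, PARP14, IRF9, UBE2L6, HERC5, IFIT3 and IFIT5 had log2 changes between -0.26 and 0.28 in both lines and passed no threshold. The median over the 46 members was -0.09 in TPC1 and -0.13 in D11, beside -0.04 and -0.05 over all genes. In TPC1, 18 members had higher and 28 lower values (39.1% higher, against 45.5% of all genes). In D11, 19 were higher and 27 lower (41.3% higher, against 44% of all genes). With TMM scaling, 21 were higher and 25 lower in TPC1, and 20 higher and 26 lower in D11. The member medians were then -0.02 in TPC1 and -0.08 in D11, beside 0.02 and 0.001 over all genes.

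With replicate number as a block, which the D11 libraries allow, 9 members were lower and 4 higher in D11, beside 6.29% and 4.36% of all genes in that fit. The further ones were MX1 (15.0 ± 3.6 in NC and 6.33 ± 2.5 in siDicer, mean ± SD, n = 3), ISG20 (64.3 ± 34 and 32.3 ± 2.3), IFI6 (187 ± 110 and 94.7 ± 17) and PSMB9. In ISG20 and IFI6 the NC mean rests on replicate 2, which was at 103 and 312 against 37 to 53 and 113 to 135 in the other NC libraries. In TPC1 the same block gave 6 lower and 2 higher members, named further on, beside 5.12% and 4.18% of all genes.

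Against non-transfected cells, siDicer shows the sum of both steps, and since NC enters both contrasts above, the values are only set side by side. IFI44 rose by 0.80 with transfection and was lower by 1.12 with Dicer1 siRNA in TPC1, which left siDicer against NT at a log2 change of -0.32 (limma adjusted p = 0.0991). In D11 the same contrast gave -0.49 (1.41-fold, under the fold minimum). OAS3 was -0.69 in both lines and was called lower in both (adjusted p = 0.0416 and 0.00539), although without any 1 of 8 of the 9 TPC1 libraries it was not called there (log2 -0.80 to -0.51). IRF1 was called higher in both lines (0.92 in TPC1, adjusted p = 0.00704; 0.92 in D11, adjusted p = 0.00263), as were TAP1 (0.75 and 0.84) and PSMB9 (1.06 and 0.78). In TPC1 the calls of TAP1 (log2 0.58 to 0.77) and PSMB9 (0.85 to 1.15) were each lost without NT replicate 1 or 3 or siDicer replicate 1 or 3, and that of TAP1 also with only the 2 groups fitted. In D11, PSMB9 lost its call without NT replicate 3 or siDicer replicate 1 or 3 (0.63 to 0.77), and OAS3 without siDicer replicate 3 (-0.56).

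In all, 4 members were higher and 1 lower against NT in TPC1, beside 4.37% and 4.22% of all genes, and 6 were higher and 5 lower in D11, beside 8.47% and 8.60%. The other calls were IFIT3 higher in TPC1 (0.72), DTX3L (0.60), TRIM22 (1.24) and IFI44L (1.31) higher in D11, and ISG15 (-1.09), IFI35 (-0.96), IRF7 (-0.78) and OASL (-0.65) lower in D11. IRF7 lost its call with TMM or RLE scaling, no filter, only the 2 groups, or without replicate 1 or 3 of any D11 group (log2 -0.90 to -0.51 in the last 6 fits). OASL lost it with no filter or without NT replicate 1 or 3 or siDicer replicate 2 or 3 (-0.70 to -0.45), IFI44L without NT replicate 1 or 3 or siDicer replicate 1 (1.02 to 1.31), DTX3L without NT replicate 1 or siDicer replicate 3 (0.56 and 0.57), and IFIT3 without NT replicate 3 or siDicer replicate 1 or 3 (0.60 to 0.66). With replicate number as a block, RSAD2 (1.24) and OAS2 (1.46) were also called in D11, which gave 8 higher and 5 lower beside 9.86% and 9.95% of all genes. The median over the members was 0.05 in TPC1 and 0.17 in D11, beside -0.05 and -0.04 over all genes. TMM scaling moved the share of all calls that were higher from 50.9% to 62.2% in TPC1.

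The response of the lines was compared directly. For the change with transfection and for that with Dicer1 siRNA, no gene of 19181 was called different between D11 and TPC1 (0% by limma), and voom also called no member. At an unadjusted p under 0.05 there were 334 and 117 genes, among them 1 member each, OAS2 and MX1. OAS3 differed by -0.08 ± 0.26 (SE), OASL by -0.23 ± 0.30, IRF7 by -0.80 ± 0.39, TRIM22 by 0.24 ± 0.47 and TAP1 by 0.13 ± 0.27 on the log2 scale, so none of the calls made only in D11 was shown to belong to D11 alone. Between NT cells of the lines, TRIM22 was the called member, at 64, 74 and 27 in TPC1 and 112, 223 and 153 in D11 (log2 1.61 ± 0.34, adjusted p = 0.0373), beside 0.0573% of all genes higher and 0.386% lower. No member was called lower, with 8 members at an unadjusted p under 0.05 (17.4%, against 11.2% of all genes), and voom called none in either direction. The TRIM22 call was lost in 10 of 18 fits that left out 1 library (log2 1.17 to 1.63). TRIM22 exons overlap those of 2 olfactory receptor genes on the same strand.

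Other genes of the pathway were looked at by role. Of the 11 receptor, kinase and STAT genes, none was called in any of the 4 contrasts of NC with NT and siDicer with NC. With replicate number as a block, IFNLR1, a chain of the receptor for lambda interferons, was called lower in D11 siDicer against NC, at 18, 35 and 24 in NC and 9, 17 and 10 in siDicer (log2 -1.04, limma adjusted p = 0.0164, against 0.0686 without the block). Of 11 tested sensor adapters and kinases, MB21D1 (cGAS, the sensor of cytosolic DNA) was called lower after Dicer1 siRNA in both lines and none higher. MB21D1 was 245, 209 and 214 in TPC1 NC and 118, 107 and 92 in siDicer, a 2.10-fold decrease (log2 -1.07 ± 0.21, limma adjusted p = 0.0156). In D11 it was 213, 205 and 180 in NC and 93, 89 and 77 in siDicer, a 2.30-fold decrease (log2 -1.20 ± 0.15, adjusted p = 0.000609). NT values of 150 to 271 in TPC1 and 182 to 204 in D11 were also above all siDicer values, and between NC and NT the log2 change was 0.09 and 0.03. The TPC1 call was lost without NC replicate 1 or 3 or siDicer replicate 3 (log2 -1.10 to -0.98). MB21D1 shares exon sequence with DDX43 on the other strand.

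The adapter of the cGAS route, TMEM173 (STING), was 449, 900 and 522 in TPC1 NC and 358, 578 and 347 in siDicer, and 428, 798 and 551 in D11 NC and 306, 435 and 373 in siDicer, where groups overlapped (log2 -0.52 and -0.64, limma adjusted p = 0.273 and 0.0627). In D11 each siDicer library was below the NC library of its number, and with the block TMEM173 was called lower (adjusted p = 0.00435). MAVS, the adapter of the RNA sensors, was 2437, 2431 and 2495 in TPC1 NC and 3497, 3161 and 3685 in siDicer, and 2427, 2274 and 2258 in D11 NC and 3321, 3086 and 3399 in siDicer. Its log2 change of 0.49 in both lines (adjusted p = 0.0209 and 0.00956) was under the fold minimum. TRIM25, a ubiquitin ligase of the RIG-I route, was at a log2 change of 0.40 in TPC1 and 0.36 in D11 (adjusted p = 0.123 and 0.018).

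Of the 21 genes of interferon gamma and HLA class I, 15 were tested, and 14 of the 15 had higher values in siDicer than in NC in each line, with a median of 0.38 in TPC1 and 0.36 in D11. In D11, 2 were called higher and none was called in TPC1. GBP1, a GTPase induced by interferon gamma, was 482, 154 and 305 in D11 NC and 959, 556 and 832 in siDicer (2.69-fold, log2 1.43 ± 0.34, limma adjusted p = 0.0179). In TPC1 GBP1 was 465, 210 and 329 in NC and 1370, 394 and 1162 in siDicer (log2 1.43 ± 0.42, adjusted p = 0.0649), where siDicer replicate 2 lay within the NC range. HLA-F was 247, 295 and 259 in D11 NC and 381, 382 and 461 in siDicer (1.52-fold, log2 0.61 ± 0.14, adjusted p = 0.0165). Without siDicer replicate 1 or 3 the GBP1 call in D11 was lost (log2 1.26 and 1.36), and that of HLA-F without NC replicate 1 or 3 or siDicer replicate 3 (log2 0.52 to 0.59) or with all 18 libraries fitted together (adjusted p = 0.0682). CXCL9, CXCL10, CXCL11 and IDO1, which are also on that list, were at 0 to 2 in all libraries, and IFNG was at 0.

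**Figure D4:**
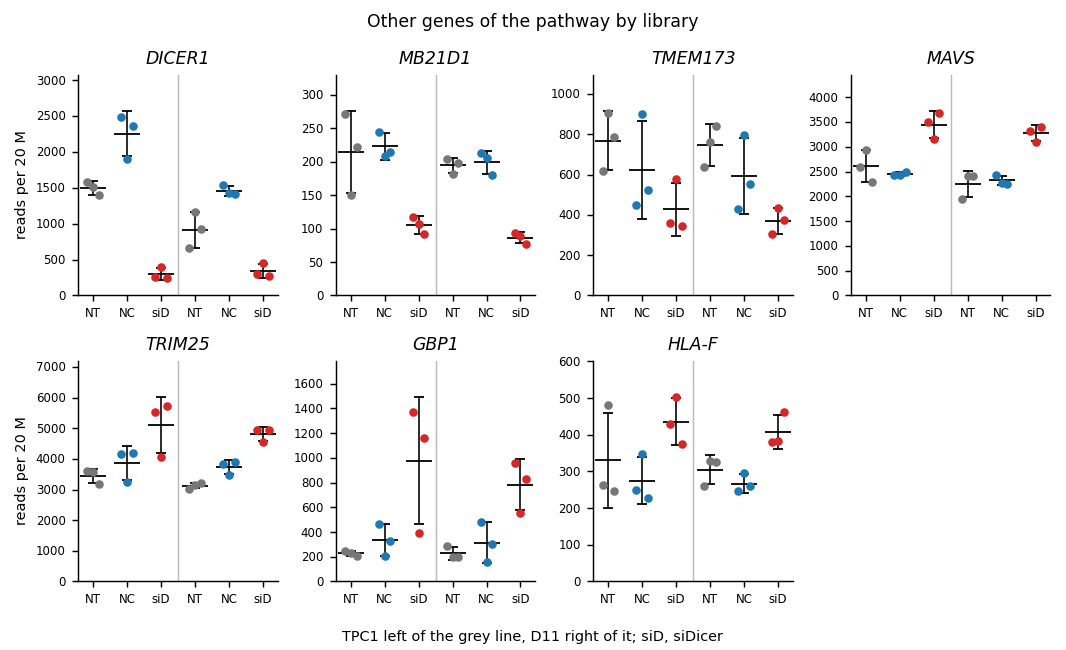
Points are single libraries, dashes the mean and bars the SD of 3; the vertical axis is reads per 20 M from 0, TPC1 left and D11 right of the grey line. DICER1 and MB21D1 are lowest and MAVS highest in siDicer of both lines, and GBP1 in siDicer replicate 2 is lower than in replicates 1 and 3.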

How the data were processed

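The authors aligned paired-end reads of a stranded poly-A selected preparation to GRCh38 with STAR 2.5.3a, counted genes of Ensembl release 90 using HTSeq 0.9.1 and brought every library to 20 M aligned reads. The deposited values are therefore a normalised score, rounded up to whole numbers, and not counts, so edgeR and DESeq2 were not used. Depth came from the spacing of the values. log2(value + 1) was fitted with limma 3.58.1 (trend, R 4.3.3) for genes that reached a value of 10 in 3 or more of the fitted libraries, in the 9 libraries of a line, or in all 18 for contrasts between lines, with Benjamini-Hochberg adjustment over all genes. This scale understates changes of low genes. The script was tested on simulated data. Alternatives were scaling, filters, pseudocounts, the fold minimum, a replicate block, the libraries fitted, titles as the source of groups, and single libraries left out. In D11, same-numbered libraries deviated together in 9 of 9 pairs (correlation 0.108 to 0.504), so the numbers, taken from the descriptions, were taken to pair them; the values given first are without the block, and the blocked ones stand beside them where a call changed. Members and gene lists were chosen with earlier results of these data known. Named are DICER1, members called in NC against NT or siDicer against NC, the 2 most abundant members of each of 9 roles, the interferons, and called pathway genes; others (among them PSMB9, RSAD2, MX1, ISG20, IFI6, IFI44L, OAS1, OAS2, PARP9, MAVS, TRIM25, TMEM173, IFNLR1) were picked after their values were seen. Some genes of the lists are not reported here. Gene positions are those of GENCODE release 44, and promoters those of RefSeq.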

Additional observations from a re-analysis of the deposited data

How the results depend on the processing

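With groups from the titles, no member was called in any contrast: counts were 0 for NC against NT and for siDicer against NC or NT in both lines, and 0 for D11 NT against TPC1 NT. The direction of 14 changes turned, all in that setting: IFI44 (-0.093) in NC against NT in TPC1, DTX3L (-0.009) in D11, MB21D1 (0.13) and TRIM22 (-0.16) in siDicer against NC in TPC1 and D11, IFIT3 (-0.30), IRF1 (-0.10), TAP1 (-0.33) and PSMB9 (-0.53) in siDicer against NT in TPC1, and IFI35 (0.034), IRF1 (-0.089), IFI44L (-0.63), TAP1 (-0.23), IRF7 (0.19) and PSMB9 (-0.40) in D11. The other 762 of 776 refitted changes of called genes kept their direction.

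For NC against NT, fitting only the 2 groups gave 0 higher members in TPC1, and all 18 libraries gave 2 in D11. For siDicer against NC in TPC1, higher counts of 1 came from TMM and RLE scaling, all 18 libraries and voom on recovered reads (chosen after seeing the data), and of 3 without a fold minimum and with NT and NC joined as the control. Lower counts there were 1 with TMM, 4 without a fold minimum and 4 with all 18 libraries, and in D11 the count was 11 without a fold minimum. With NT and NC joined, IFI44 and IFIT1 were not called in TPC1. For siDicer against NT in TPC1, lower counts were 0 with TMM, RLE, no filter or only the 2 groups, and 3 without a fold minimum. In D11 they were 3 with no filter and 8 without a fold minimum, with 13 higher. For D11 NT against TPC1 NT, higher counts were 0 with a mean of at least 100, only the 2 groups or voom. Over all genes, TMM scaling gave 580 higher and 417 lower in siDicer against NC in TPC1, beside 444 and 546 without it. The share of all genes called is not given for the other settings above or for the fits that left out 1 library. These counts therefore show only how the calls of members moved. The cause was not tested.

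Leaving out 1 library, the higher and lower counts ranged from 0 to 1 and 0 to 0 (NC against NT, TPC1), 0 to 2 and 0 to 0 (D11), 0 to 2 and 1 to 3 (siDicer against NC, TPC1), 1 to 3 and 4 to 7 (D11), 1 to 6 and 0 to 1 (siDicer against NT, TPC1), 4 to 8 and 2 to 6 (D11), and 0 to 1 and 0 to 1 (D11 NT against TPC1 NT).

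With the replicate block, 3 members were higher in NC against NT in D11. In TPC1, 8 of 9 same-numbered pairs had a correlation over 0.1 (lowest 0.0994), so its libraries did not count as paired, and the block gave 2 higher (TAP1 and PSMB9) and 6 lower (IFI44, IFIT1, OAS3, OASL, ISG15 and ISG20) in siDicer against NC, beside 4.18% and 5.12% of all genes, and 2 lower in siDicer against NT. In 16 of 18 comparisons with another group a TPC1 library was nearest to its own number, and a D11 library likewise in 16 of 18. Depth limits the members under about 10 reads, such as MX1, OAS2 and RSAD2.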

Other observations

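Replicate 2 stood apart for some members in nearly all groups, a pattern seen after the values were known. IFI16, STAT2, ISG20, SAMD9 and IFI27 were highest in replicate 2 in 5 or 6 of the 6 groups, and IRF1 and IFIT5 were lowest in replicate 2 in 5 or 6. STAT2 was 1103 in TPC1 NT replicate 2 against 494 and 449 in the other two, and IFI27 was 55, 59 and 86 in replicate 2 of TPC1 NT, NC and siDicer against 18 to 38 in the other TPC1 libraries. IFI6 was 312 in D11 NC replicate 2 and 113 and 135 beside it.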
